A study of Caenorhabditis elegans with 42 samples.

Results

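The ugt genes of Caenorhabditis elegans code for enzymes that resemble glucuronosyltransferases. They were taken as every gene whose deposited name is ugt followed by a number, which gave 65 genes with 75 transcripts among 30304 genes and 34873 transcripts. The RNA came from the wildtype strain N2 and from 4 mutant strains with a mutation in adr-1 or adr-2, genes of the family of adenosine deaminases that act on RNA, at the embryo and the L4 stage, the last larval stage. ADR-2 is the enzyme that turns adenosine into inosine in double-stranded RNA, and ADR-1 binds double-stranded RNA and influences which sites ADR-2 edits. The adr-1 mutants were BB19 (allele tm668) and BB2 (gv6). The adr-2 mutants were RB886 (ok735) and BB3 (gv42). Embryo means rested on 4 N2, 3 BB19, 2 BB2, 3 RB886 and 3 BB3 libraries per the labels, and L4 means on 3 libraries of each strain. Worms grew at 20 °C on the bacterium OP50, embryos were released with hypochlorite, and L4 larvae came from hatchlings first held for 24 h without food. A separate experiment in young adults pulled down RNA with an anti-FLAG antibody. Strain HH76 is adr-1(tm668) and carries the extrachromosomal array blmEx1 with 3XFLAG-adr-1. Strain HH134 carries the same array in adr-1(tm668);adr-2(ok735). BB21 is adr-1(tm668);adr-2(ok735) with no tag and served as the negative control. Each of these 3 strains gave 2 pulled-down and 2 input libraries.

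UDP-glycosyltransferases sit in the membrane of the endoplasmic reticulum and move a sugar from a UDP-sugar onto a fat-soluble compound, which makes it easier to excrete. This conjugation step follows oxidation by cytochromes P450 and stands beside conjugation by glutathione transferases in the clearance of foreign and internal compounds. Nematodes attach mainly glucose, and the intestine is a main site of this chemistry in the worm. The compound that each single ugt enzyme handles is for the most part not known, so the members below are grouped by how they were measured rather than by substrate.

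The deposited values were the authors' normalised read counts averaged over the libraries of a strain, with their fold change and adjusted p for each mutant strain against N2 in 8 comparisons. The sum of a strain's means over all transcripts ranged from 14200000 to 17400000 normalised reads. Values per library were not used here, no SD can be given, and the ± beside a log2 change is the counting standard error of the ratio of the means. Calls, higher or lower, used the authors' adjusted p with a threshold of 0.05. Whether the libraries behind a mean agreed cannot be told from means, so each call was also read under an assumed spread of 20% between libraries. Per the labels the libraries are biological replicates, although the titles of 2 of the 3 RB886 embryo libraries carry what reads as the same date, so these may not be separate cultures, and p-values measure only the spread between these samples as the authors' method took it in. The mutated genes were low where the labels place the mutation: adr-1 was at 0.242 and 0.170 of N2 in BB19 and BB2 embryos and at 0.309 and 0.537 at L4, and adr-2 was between 0.0581 and 0.0877 of N2 in RB886 and BB3. In BB2 L4 larvae adr-2 was lower too, at 0.638 of N2 (the authors' adjusted p = 1.13e-29). In embryos adr-2 was also called lower in BB19, at 0.893 of N2 (the authors' adjusted p = 2.38e-09), and in BB2, at 0.858 (2.23e-16). It was not called in BB19 at L4.

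Transcripts of the ugt genes made up 884 ppm (parts in 1000000 of the strain's summed normalised means) in N2 embryos and 1897 ppm in N2 L4 larvae. The 10 members of the highest mean held 56.0% of the family's sum in embryos and 55.0% at L4. In N2 embryos ugt-29 had a mean of 1000, ugt-58 of 914 and ugt-23 of 862 normalised reads, followed by ugt-49 (608), ugt-48 (529), ugt-22 (516), ugt-53 (459), ugt-57 (459), ugt-45 (417) and ugt-64 (373). In N2 L4 larvae ugt-22 had a mean of 2440, ugt-62 of 1810 and ugt-29 of 1560 normalised reads, followed by ugt-48 (1130), ugt-46 (1090), ugt-58 (1010), ugt-47 (974), ugt-64 (947), ugt-23 (815) and ugt-49 (764). These are reads per transcript that are not divided by its length, so they rank how well each member was measured and not how many molecules it had. In N2, 13 members had a mean below 10 in embryos and 8 at L4, ugt-42 was listed at 0 in embryos and ugt-35 at 0 at L4. None of the 65 was at 0 in every mean.

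The family was expressed in a stage-dependent way in N2, as a description across tables that were normalised separately. Of 57 members with an average N2 mean of at least 10, 28 had a share at least 2-fold higher at L4, 9 had a share at least 2-fold higher in embryos and 20 lay between. Over all genes with such a mean, 29.7% were at least 2-fold higher at L4 and 18.6% at least 2-fold higher in embryos. The median log2 ratio of L4 to embryo, with 0.1 ppm added to each share, was 0.86 over these members and 0.02 over all genes with such a mean. Among these 57 members the widest L4 excess was that of ugt-47, which went from 0.408 ppm in embryos to 81.0 at L4. Behind it came ugt-30 (0.118 to 19.1 ppm), ugt-41 (0.361 to 31.9), ugt-8 (1.53 to 47.5) and ugt-6 (1.24 to 29.7). The widest embryo excess among them was that of ugt-34, at 2.74 ppm in embryos and 0.161 at L4. It was followed by ugt-57 (37.0 and 2.47 ppm), ugt-59 (3.62 and 0.471), ugt-4 (15.5 and 3.29) and ugt-11 (9.04 and 2.21). The average runs over both stages, so some of these ratios rest on few reads at the lower stage. The lower N2 mean was 5.05 for ugt-47, 1.46 for ugt-30, 4.47 for ugt-41, 1.94 for ugt-34 and 5.66 for ugt-59. Their log2 ratios had counting standard errors of 0.32, 0.58, 0.34, 0.59 and 0.36. Below an average N2 mean of 10, and named after its values were seen, ugt-36 went from 0.0217 to 1.61 ppm. Among members of high means, ugt-23 had nearly the same share at both stages, 69.6 and 67.8 ppm.

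**Figure D1:**
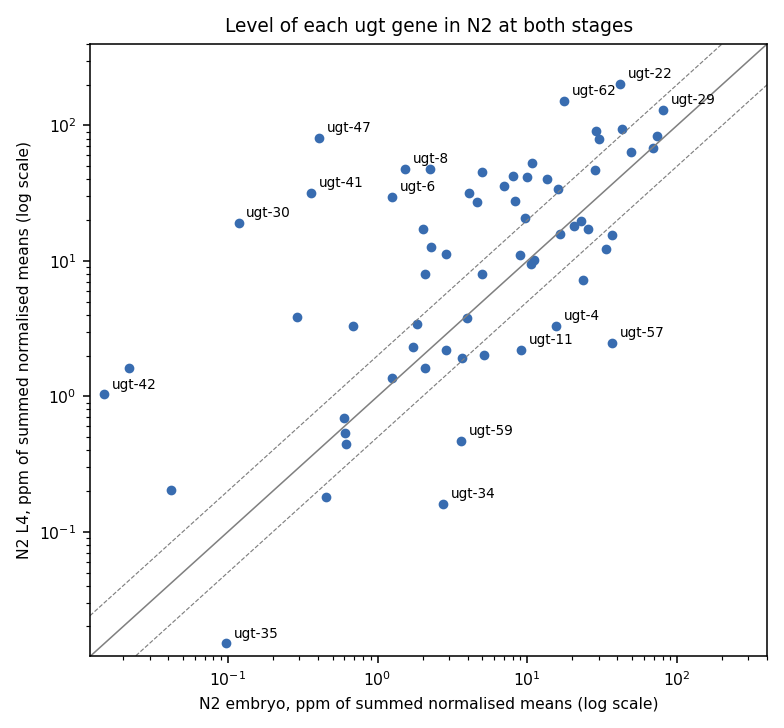
Each point is 1 of the 65 ugt genes, placed by its share of the summed normalised means of N2 in embryos (horizontal) and at L4 (vertical), in ppm and on log scales. The solid line marks equal shares and the dashed lines a 2-fold difference; ugt-42 and ugt-35, listed at 0 at one stage, sit at the edge. Points above the upper dashed line, among them ugt-47 and ugt-30, outnumber those below the lower one, such as ugt-57 and ugt-34.

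In embryos, 15 members were called higher and 9 lower in BB19 of 64 tested, where 13.2% of all genes tested were called higher and 16.8% lower. In BB2 embryos 24 were called higher and 12 lower of 64 (18.7% and 16.7% of all genes). In RB886 embryos 9 were higher and 3 lower of 64 (9.27% and 8.93%), and in BB3 embryos 15 were higher and 7 lower of 65 (10.4% and 5.83%). At L4, 28 members were higher and 16 lower in BB19 of 64 (17.3% and 15% of all genes), and 27 were higher and 11 lower in BB2 of 65 (16.2% and 18.4%). In the adr-2 mutants at L4, 11 were higher and 15 lower in RB886 of 65 (9.42% and 8.06%), and 15 were higher and 9 lower in BB3 of 65 (8.51% and 8.4%). The largest share of members was thus called in BB19 at L4, 44 of 64 (32.3% of all genes), and the smallest in RB886 embryos, 12 of 64 (18.2%). The all-gene shares in this paragraph include more genes of low means than the family does. In BB19 at L4, 16644 of 25557 genes tested had an average of the N2 and mutant means of at least 10, beside 60 of 64 members. The part of this in the counts was not tested. Called in 1 direction in both alleles of a gene were 20 of 64 members in adr-1 embryos (21.2% of all genes tested in both), 7 of 64 in adr-2 embryos (7.6%), 27 of 64 in adr-1 L4 larvae (16.7%) and 10 of 65 in adr-2 L4 larvae (6.81%). The median log2 ratio over the 65 members lay between 0.00 and 0.24 in the 8 comparisons, beside medians over all genes tested of between -0.02 and 0.04.

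**Figure D2:**
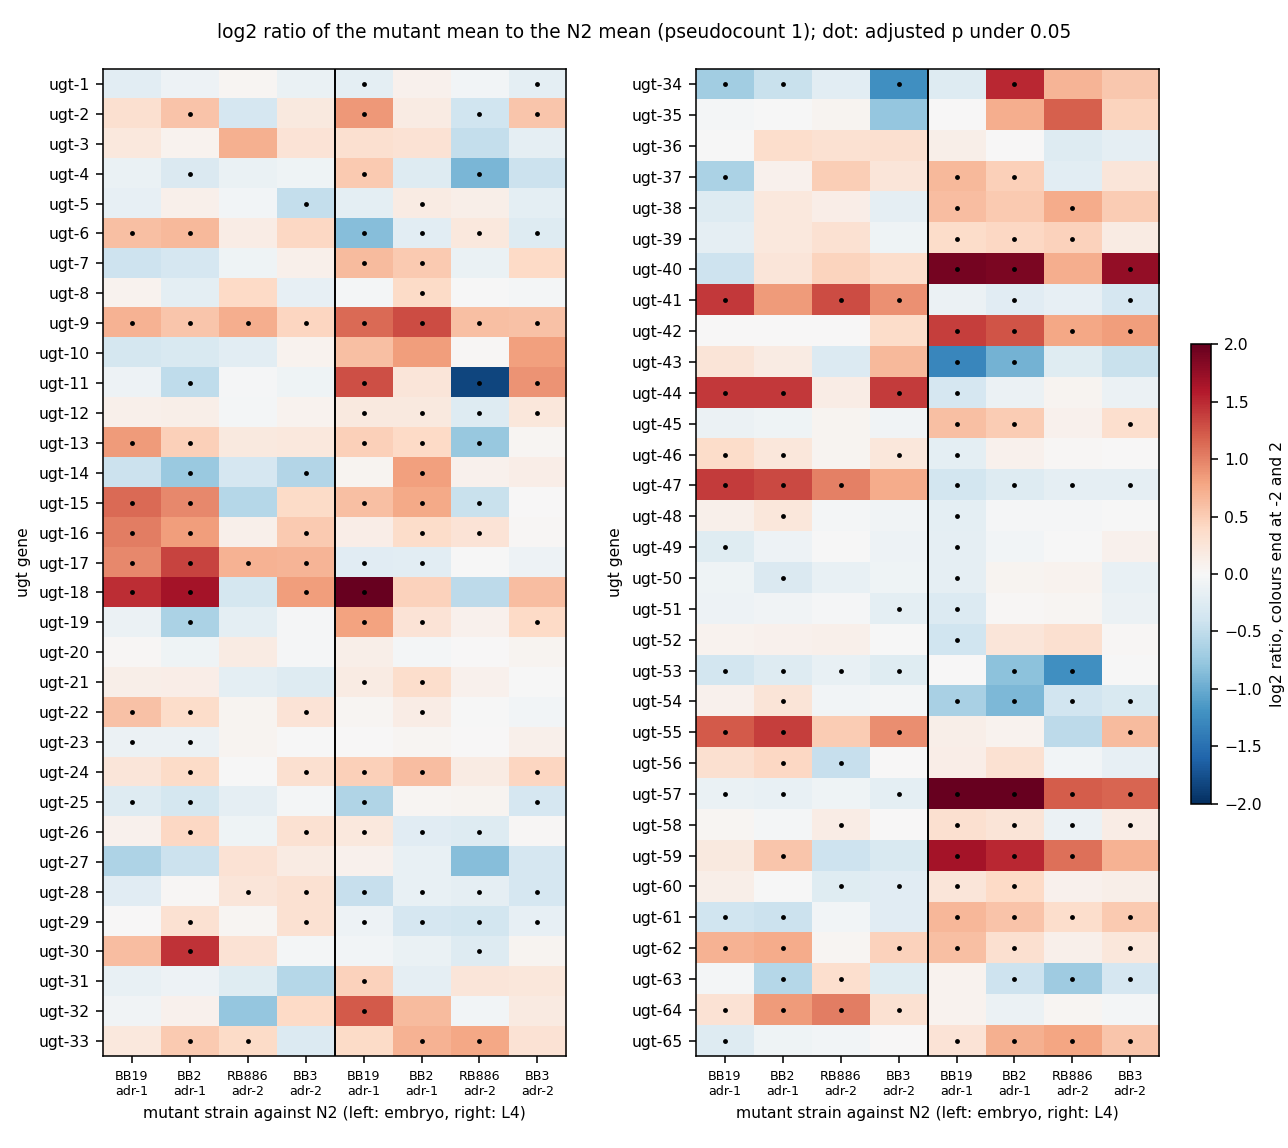
Colour gives the log2 ratio of mutant to N2 means, with a pseudocount of 1, for every ugt gene (rows) in each mutant strain (columns, embryo left and L4 right), with colours ending at -2 and 2. A black dot marks an authors' adjusted p under 0.05. Deep red cells include those of ugt-57 and ugt-40 in the adr-1 strains at L4 and of ugt-18, ugt-44 and ugt-55 in adr-1 embryos.

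With a change of at least 1.5-fold and an average mean of at least 10 also asked for, fewer members and fewer genes passed. The average is that of the N2 and mutant means. A gene with an N2 mean below 10 could thus pass through its own rise but not through a fall. In embryos, 11 of 53 members were higher in BB19 (9.12% of all genes of such a mean), 9 in BB2 (16.4%), 3 in RB886 (2.28%) and 4 in BB3 (4.15%). The members lower by this rule in embryos were 2 in BB19 (2.44% of all genes), 2 in BB2 (1.26%), 0 in RB886 (0.573%) and 2 in BB3 (0.526%). At L4, 17 of 60 members were higher in BB19 (6.45%), 10 of 59 in BB2 (4.97%), 6 of 57 in RB886 (2.42%) and 6 of 58 in BB3 (3.51%). The members lower by this rule at L4 were 4 in BB19 (6.18%), 3 in BB2 (8.27%), 5 in RB886 (3.42%) and 0 in BB3 (2.17%). The 9 members in BB2 embryos are 17.0% of those measured, near the share over all genes, and the 17 in BB19 at L4 are 28.3%.

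**Figure D3:**
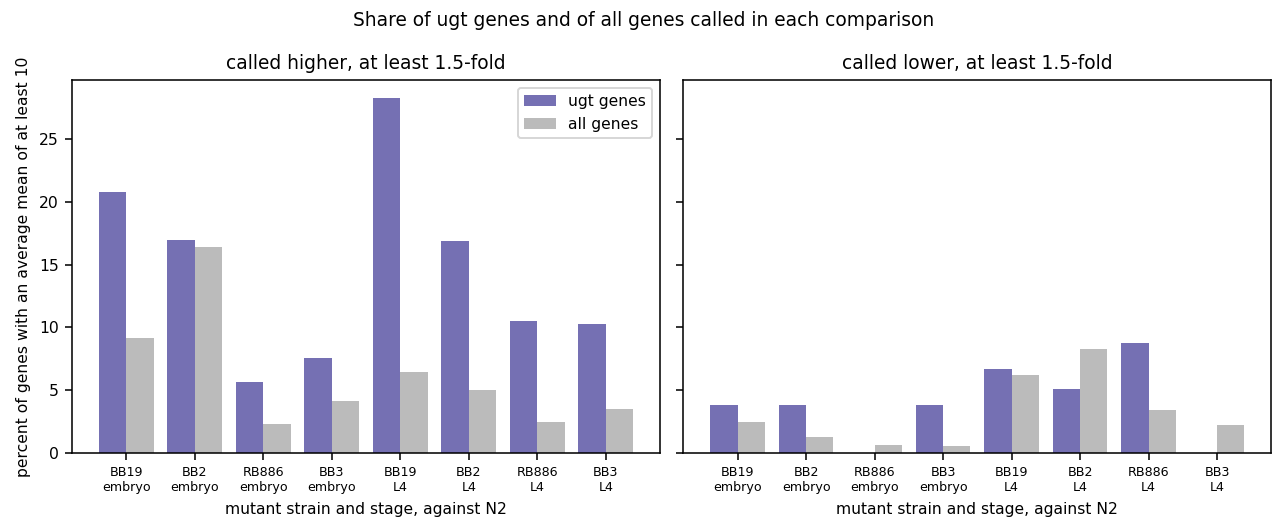
Bars give the percent of ugt genes (purple) and of all genes (grey) with an average mean of at least 10 that were called at an adjusted p under 0.05 and changed at least 1.5-fold, higher on the left and lower on the right, in each mutant strain and stage. The purple bar is tallest in BB19 at L4, at 28.3% beside 6.45% of all genes, and stands near the grey one in BB2 embryos.

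In adr-1 embryos, 8 of 53 members were called higher at least 1.5-fold in both alleles, where 7.66% of all genes were, and 0 were called lower in both (0.386% of all genes). They were ugt-18, ugt-44, ugt-55, ugt-15, ugt-17, ugt-16, ugt-62 and ugt-6. Both alleles were set against the same N2 libraries, so a low N2 mean would raise both. The gene ugt-18 had a mean of 15.5 in N2 and 44.7 in BB19, and of 16.1 in N2 and 53.2 in BB2 in the tables of each strain. It was 2.88-fold higher in BB19 (log2 1.53 ± 0.22, the authors' adjusted p = 3.57e-12) and 3.31-fold higher in BB2 (log2 1.73 ± 0.23, the authors' adjusted p = 4.28e-16). As a share of the summed means it stood at 1.25 ppm in N2, 3.65 in BB19 and 4.37 in BB2. RB886 embryos were at 0.980 ppm, close to N2, and BB3 embryos at 2.21, between N2 and the adr-1 strains.

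The gene ugt-44 had a mean of 27.6 in N2 beside 75.0 in BB19, and of 28.6 in N2 beside 78.3 in BB2. Its log2 change was 1.44 ± 0.17 in BB19 (the authors' adjusted p = 2.82e-18) and 1.45 ± 0.18 in BB2 (7.84e-19). BB3 embryos, an adr-2 mutant, had a change of the same size (log2 1.43 ± 0.17, the authors' adjusted p = 1.94e-16), while RB886 embryos were not called (log2 0.15 ± 0.20, the authors' adjusted p = 0.686). The strains thus split for ugt-44 into N2 and RB886 at 2.23 and 2.52 ppm and BB19, BB2 and BB3 at 5.79 to 6.43. The gene ugt-55 was at a mean of 8.44 in N2, 21 in BB19 and, in the other table, 8.75 in N2 and 24.3 in BB2, with log2 changes of 1.31 ± 0.31 and 1.47 ± 0.32. Its N2 means lay below 10, so it reached the minimum average mean through its own rise.

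The other 5 members higher in both adr-1 alleles as embryos follow. The log2 changes in BB19 and BB2 were 1.16 and 0.99 for ugt-15, 0.98 and 1.37 for ugt-17, 1.03 and 0.84 for ugt-16, 0.70 and 0.75 for ugt-62, and 0.63 and 0.67 for ugt-6. With an assumed spread of 20% between libraries, ugt-18, ugt-44, ugt-55, ugt-15 and ugt-17 passed in both alleles, ugt-16 in 1, and ugt-62 and ugt-6 in 0. The authors' deposited list of genes up in adr-1 embryos, 374 genes, names ugt-18, ugt-44, ugt-47 and ugt-55. The gene ugt-47 fell below the average mean of 10 used here: its mean was 5.05 in N2 and 14.9 in BB19 (log2 1.56 ± 0.38), and 5.23 in N2 and 14.5 in BB2 (log2 1.47 ± 0.41).

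Markers of several tissues moved in the same adr-1 embryos. Of 14 intestine markers 8 were called higher in BB19 and 8 in BB2 (1 and 3 lower), and their summed level changed by log2 0.40 and 0.23. Of 10 neuron markers 9 and 8 were higher, of 7 muscle markers 7 and 6, and all 10 germline and oocyte markers were lower in both strains (summed log2 -0.41 and -0.42). In RB886 embryos 1 of the 14 intestine markers was higher and 7 were lower, and all 10 germline and oocyte markers were higher. Of the neuron markers 5 were higher and 1 lower there, and of the muscle markers 3 and 2. BB3 embryos had 6 of 14 intestine markers higher and 3 lower, 6 of 10 neuron and 7 of 7 muscle markers higher and 0 lower, and 6 of 10 germline and oocyte markers higher and 2 lower. Of 10 epidermis markers 3 were higher and 6 lower in BB19 embryos, 1 and 7 in BB2, 1 and 5 in RB886, and 0 and 3 in BB3. None of these marker genes was at 0. Embryos that differ in age or tissue make-up and embryos with another level per cell cannot be told apart in RNA of whole embryos, and the part of this in the ugt changes was not tested. Beside these values stands the stage pattern of N2, in which ugt-44, ugt-17, ugt-16, ugt-15, ugt-62, ugt-6 and ugt-55 had L4 shares of between 4.88 and 23.9 times their embryo shares, while ugt-18 had nearly equal shares at both stages (1.25 and 1.36 ppm).

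In adr-2 embryos, 1 of 53 members, ugt-17, was called higher at least 1.5-fold in both alleles (1.16% of all genes) and 0 were lower in both (0.164%). Its mean was 64.3 in N2 and 105 in RB886, and 61.3 in N2 and 98.3 in BB3. The log2 change was 0.70 ± 0.12 (the authors' adjusted p = 1.59e-09) and 0.68 ± 0.12 (1.74e-09), and it passed in neither allele with the 20% spread. As a share, ugt-17 was lowest in N2 (4.95 ppm), then in BB3 (7.65), RB886 (8.23), BB19 (9.87) and BB2 (13.5). The authors' deposited lists of genes up or down in adr-2 embryos name no ugt gene.

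The gene ugt-64 was among the higher members of all 4 mutant embryos, but by sizes that did not follow the mutated gene. It is named here after its values were seen. Its log2 change was 0.86 ± 0.05 in BB2 and 1.02 ± 0.05 in RB886, and 0.30 ± 0.05 in both BB19 and BB3. BB2 and RB886 passed with the 20% spread and the other strains did not. At L4 ugt-64 was called in none of the strains, with log2 changes between -0.12 and 0.06.

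In adr-1 L4 larvae, 6 of 59 members were called higher at least 1.5-fold in both alleles (2.94% of all genes) and 2 lower in both (2.85%). The higher ones were ugt-57, ugt-40, ugt-59, ugt-42, ugt-9 and ugt-15, and the lower ones ugt-43 and ugt-54. Of the higher ones, ugt-40 and ugt-59 had N2 means below 10 and reached the minimum average mean through their own rise. The gene ugt-57 changed most. Its mean was 29.7 in N2 and 136 in BB19, and 26.6 in N2 and 121 in BB2. That is 4.60-fold in BB19 (log2 2.20 ± 0.17, the authors' adjusted p = 5.42e-42) and 4.54-fold in BB2 (log2 2.18 ± 0.18, the authors' adjusted p = 4.4e-48). The adr-2 mutants lay between N2 and the adr-1 mutants: the mean was 28.8 in N2 and 68.0 in RB886 (log2 1.24 ± 0.18, the authors' adjusted p = 2.1e-09), and 29.3 in N2 and 66.9 in BB3 (log2 1.19 ± 0.18, the authors' adjusted p = 3.76e-10). Set side by side as shares, ugt-57 stood at 2.47 ppm in N2, 5.68 in RB886, 5.69 in BB3, 10.5 in BB2 and 11.2 in BB19. The 2 alleles of each gene thus lay close together, and the strains of both genes lay above N2. All 4 were compared with the same 3 N2 libraries, and a low N2 mean cannot be told apart from a rise in all 4 strains. The difference between the adr-1 and the adr-2 strains was not tested. In embryos, where N2 had 37.0 ppm of ugt-57, the mutants had 31.2 to 35.7, and ugt-57 was called lower in BB19 (log2 -0.14 ± 0.05, the authors' adjusted p = 0.0139), BB2 (-0.15 ± 0.06, 0.00703) and BB3 (-0.19 ± 0.05, 0.0301) and not called in RB886.

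The gene ugt-40 was at a mean of 5.38 in N2 and 23 in BB19, and at 4.82 in N2 and 20.5 in BB2. Its log2 change was 2.10 ± 0.39 in BB19 (the authors' adjusted p = 1.45e-07) and 2.09 ± 0.42 in BB2 (1.44e-08). BB3 was called higher too (log2 1.93 ± 0.40, the authors' adjusted p = 9.95e-06), and RB886 was not called (log2 0.84 ± 0.45, the authors' adjusted p = 0.343). The low N2 mean sets the width of these errors. The gene ugt-59 was at 5.66 in N2 and 20.0 in BB19, and at 5.08 in N2 and 16.2 in BB2, with log2 changes of 1.82 ± 0.39 and 1.67 ± 0.42. RB886 was called higher for ugt-59 (log2 1.23 ± 0.42) and BB3 was not (log2 0.79 ± 0.44).

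The gene ugt-42 was listed at 0 in N2 embryos and at a mean of 12.4 in N2 L4 larvae. Against that it was at 34.1 in BB19 (log2 1.46 ± 0.27) and, beside an N2 mean of 11.1, at 28.0 in BB2 (log2 1.34 ± 0.29). The gene ugt-9 was at 45.3 in N2 and 100 in BB19, and at 40.7 in N2 and 102 in BB2, with log2 changes of 1.15 ± 0.15 and 1.32 ± 0.15. It was the 1 member called in all 8 comparisons, always higher, with embryo log2 changes of 0.71 in BB19, 0.56 in BB2, 0.75 in RB886 and 0.44 in BB3. The gene ugt-15 moved least of the 6, by log2 0.61 in BB19 and 0.76 in BB2, and was lower in RB886 at L4 (log2 -0.46 ± 0.11, the authors' adjusted p = 6.05e-07). The authors' deposited list of genes up in adr-1 L4 larvae, 265 genes, names ugt-40, ugt-42, ugt-57, ugt-59 and ugt-9. With the 20% spread the same 5 passed in both alleles and ugt-15 in 0.

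The members lower in both adr-1 alleles at L4 were ugt-43 and ugt-54. The gene ugt-43 had a mean of 46.0 in N2 beside 18 in BB19 and of 41.3 in N2 beside 20.9 in BB2, and fell by 1.36 and 0.98 on the log2 scale. The gene ugt-54 had a mean of 216 in N2 beside 137 in BB19, and in the table of BB2 it went from 194 in N2 to 0.538 of that level, so it fell by 0.66 and 0.89. Both were called in 1 allele with the 20% spread, ugt-43 in BB19 and ugt-54 in BB2. In the adr-2 strains ugt-54 was also called lower, with log2 changes of -0.38 ± 0.09 in RB886 and -0.30 ± 0.09 in BB3, and ugt-43 was not called. The authors' deposited list of genes down in adr-1 L4 larvae names no ugt gene. Sperm markers were also lower in both adr-1 strains at L4, 8 of 8 in BB19 and 7 of 8 in BB2 (summed log2 -0.29 and -0.27). Of the 14 intestine markers 4 were higher and 5 lower in BB19 and 10 higher and 1 lower in BB2 at L4, and of the 10 germline and oocyte markers 7 were higher and 2 lower in BB19 and 1 higher and 8 lower in BB2. The part of these in the ugt changes was not tested.

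**Figure D4:**
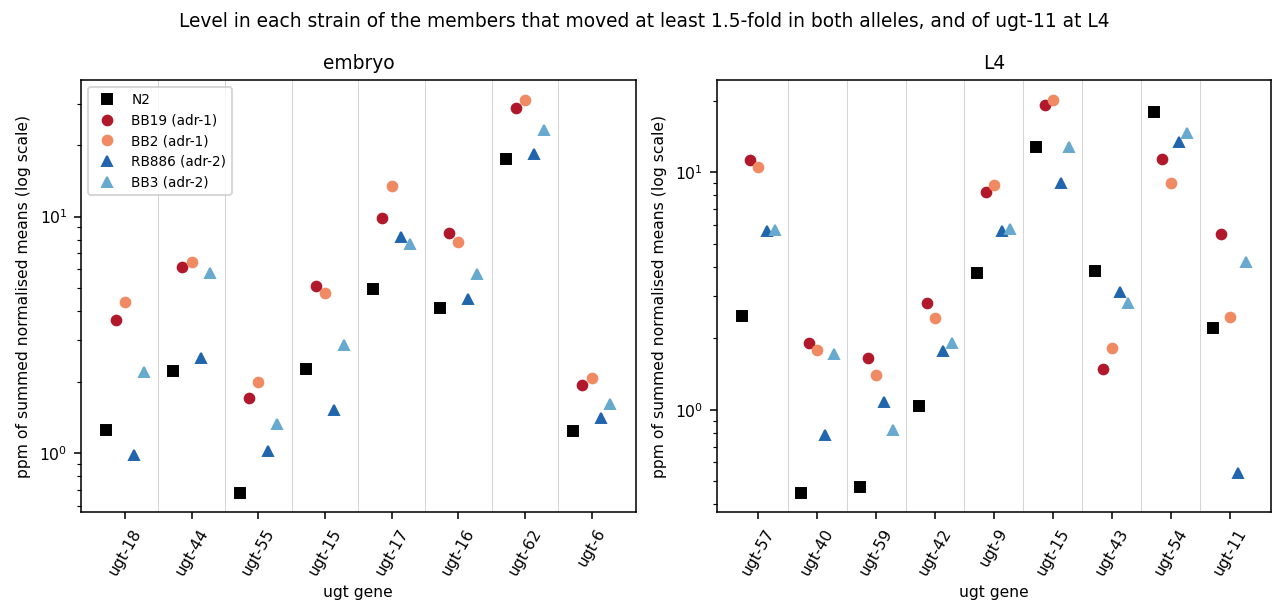
Points give the share of the summed normalised means, in ppm on a log scale, of N2 (black squares), the adr-1 strains (red and orange circles) and the adr-2 strains (blue triangles) for the members changed at least 1.5-fold in both alleles of a gene, in embryos (left) and at L4 (right), and for ugt-11 at L4. The circles of ugt-57 lie at 10.5 and 11.2 ppm above triangles at 5.68 and 5.69 and N2 at 2.47, and the triangles of ugt-11 lie on either side of N2.

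In adr-2 L4 larvae, 3 of 57 members were called higher at least 1.5-fold in both alleles (1.5% of all genes), ugt-57, ugt-42 and ugt-9, and 0 were lower in both (0.646%). Of these, ugt-42 had log2 changes of 0.82 ± 0.30 in RB886 and 0.89 ± 0.29 in BB3, and ugt-9 of 0.62 ± 0.16 and 0.60 ± 0.16. With the 20% spread ugt-57 passed in both alleles and the other two in neither. The authors' deposited list of 100 genes up in adr-2 L4 larvae names ugt-57 alone of the family. The gene ugt-11 was called in opposite directions in the adr-2 alleles. Its mean was 25.7 in N2 and 6.47 in RB886 (log2 -1.99 ± 0.36, the authors' adjusted p = 7e-09), and 26.0 in N2 and 49.1 in BB3 (log2 0.92 ± 0.20, the authors' adjusted p = 0.00132). In the adr-1 strains at L4 it was higher in BB19 (log2 1.32 ± 0.19, the authors' adjusted p = 1.9e-12) and not called in BB2 (log2 0.25 ± 0.23, the authors' adjusted p = 0.449). At L4 the share of ugt-11 was 0.540 ppm in RB886, 2.21 in N2, 2.45 in BB2, 4.17 in BB3 and 5.47 in BB19.

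The gene ugt-53, named after its values were seen, was called lower in 6 of the 8 comparisons. At L4 it went from 166 in N2 to 94.0 in BB2 (log2 -0.82 ± 0.11) and from 180 to 76.5 in RB886 (log2 -1.23 ± 0.11). In BB19 and BB3 it was at 185 and 181, beside 185 and 182 in N2. In embryos ugt-53 was below N2 in all 4 mutant strains, at 0.773 of N2 in BB19, 0.834 in BB2, 0.899 in RB886 and 0.843 in BB3. At L4, the summed level of epidermal markers rose most in BB2 and RB886. It changed by log2 0.62 and 0.50 there, against 0.10 in BB19 and 0.15 in BB3. Of the 10 markers 6, 7, 5 and 6 were called higher and 1, 1, 4 and 3 lower in BB2, RB886, BB19 and BB3. The markers did not move together. In BB2 and RB886 elt-3 changed by log2 -0.24 and -0.36, lin-26 by -0.15 and -0.01, and nhr-25 by -0.09 and -0.07. The log2 changes of bli-1, bli-2, dpy-7, dpy-13, rol-6, sqt-3 and wrt-2 were positive in both strains. Whether the sum follows the amount of epidermis was not tested. Of the 7 muscle markers, 7 were higher at L4 in BB2 and in RB886 (summed log2 0.31 and 0.22), 3 in BB19 (0.03), where 1 was lower, and 4 in BB3 (0.06). The part of these in the level of ugt-53 was not tested.

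Some highly measured members had log2 ratios, with a pseudocount of 1, within 0.2 in all 4 mutant strains of a stage, whether called or not. In embryos they were ugt-20, ugt-23, ugt-45, ugt-51, ugt-52, ugt-57 and ugt-58, 7 of 29 members with an N2 mean of at least 100, where 40.6% of all genes of such a mean did so. At L4 they were ugt-1, ugt-5, ugt-20, ugt-22, ugt-23, ugt-46, ugt-49, ugt-50 and ugt-64, 9 of 39 (38.5% of all genes). Of these, ugt-5 is within that limit only with the pseudocount, since its log2 fold change in BB3 at L4 was -0.203 without it. The gene ugt-22, which has been tied to the response to the drug albendazole in this worm, was at 2440 in N2 and 2500 in BB19 at L4, and at 2190 in N2 and 2430 in BB2. In embryos the same gene was called higher in BB19 (log2 0.59 ± 0.04), BB2 (0.37 ± 0.05) and BB3 (0.27 ± 0.05). Of the 65 members 6 were called in none of the 8 comparisons, beside 45.3% of all genes, and of the 63 members tested in every comparison 5 were, beside 30% of all genes so tested. The all-gene shares include genes of low means.

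In the WBcel235 annotation, used for names and neighbours only, 41 of the 65 members lie on chromosome V, 12 on IV, 5 on I, 4 on X, 2 on III and 1 on II. With at most 1 other protein-coding gene between neighbours, 36 members fell into 12 runs, the longest of 7 genes (ugt-12, ugt-11, ugt-9, ugt-10, ugt-8, ugt-14 and ugt-13). Within that run, ugt-9 was higher in RB886 at L4 (log2 0.62) while ugt-11 (log2 -1.99) and ugt-13 (log2 -0.76) were lower. The run of ugt-18, ugt-16 and ugt-15 held 3 of the 8 members higher in both alleles of adr-1 embryos. Of the neighbours ugt-43 and ugt-44, ugt-44 was higher in adr-1 embryos. There ugt-43 was not called, but its N2 means were 3.58 beside BB19 and 3.72 beside BB2, so a change could be missed. At L4 ugt-43 fell in both adr-1 strains, while ugt-44 was called lower in BB19 (log2 -0.33 ± 0.05, the authors' adjusted p = 8.64e-09) and was not called in BB2 (log2 -0.12 ± 0.05, the authors' adjusted p = 0.18). How reads that match several ugt genes were counted was not given in the sources used here. No member had the same means as another gene, and in 10 members with several transcripts no comparison had transcripts called in opposite directions.

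A total of 6 ugt genes had a row in the authors' deposited tables of RNA pulled down with FLAG-tagged ADR-1, 4 in HH76, which has adr-2, and 5 in HH134, which lacks it. Of the 30304 gene names, 3.7% had a row for HH76 and 3.61% for HH134. The number of genes tested is not given, so the background among expressed genes is unknown. In the authors' deposited table ugt-49 had a log2 fold change over the control of 2.79 with a standard error of 0.584 in HH76 (adjusted p = 0.000109) and of 2.15 with 0.448 in HH134 (adjusted p = 9.12e-05). For ugt-46 the authors' deposited table gives 1.68 with a standard error of 0.40 in HH76 (adjusted p = 0.000818) and 1.34 with 0.425 in HH134 (adjusted p = 0.0225). Both transcripts were thus listed with and without adr-2. The control BB21 lacks adr-2, so HH76 differs from it in adr-2 as well as in the tagged array. These cannot be told apart in the HH76 values, while HH134 differs in genotype from BB21 by the array alone. The names of the 2 comparisons do not say whether the input libraries entered them. The authors' deposited table lists ugt-8 for HH76 alone, at 4.21 with a standard error of 1.57 (adjusted p = 0.0460). The authors' deposited table lists ugt-63 (2.43 with a standard error of 0.760, adjusted p = 0.0212) and ugt-58 (1.08 with 0.342, adjusted p = 0.0223) for HH134 alone, and whether the strains differ was not tested. For ugt-10 the authors' deposited table has rows in both strains, with a standard error of 184 and 186 on the log2 scale, so its fold change carries no size. The authors' adjusted p for ugt-10 was 0.00108 in HH76 and 0.00936 in HH134. The test statistics of ugt-10, 17.0 and 12.2, are not the log2 change over its standard error. Nor are those of the other ugt rows, such as 22.1 for ugt-49 in HH76. The N2 means of ugt-10 were 5.62 in embryos and 2.16 at L4.

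At L4, ugt-49 and ugt-46 had log2 changes within 0.2 in all 4 strains, and both were called lower in BB19 (log2 -0.19 for each). In embryos ugt-46 was called higher in BB19 (log2 0.37 ± 0.05), BB2 (0.22 ± 0.06) and BB3 (0.23 ± 0.06), and ugt-49 was called lower in BB19 (log2 -0.24 ± 0.05). The gene ugt-58 was called in 5 of the 8 comparisons. It was higher in RB886 embryos (log2 0.14 ± 0.03) and at L4 in BB19 (0.31 ± 0.04), BB2 (0.25 ± 0.04) and BB3 (0.15 ± 0.04), and lower in RB886 at L4 (-0.12 ± 0.04). In embryos ugt-63 was called lower in BB2 (log2 -0.58 ± 0.19) and higher in RB886 (0.34 ± 0.13). The gene ugt-63 fell at L4 by 0.42 in BB2, 0.71 in RB886 and 0.34 in BB3 on the log2 scale, and had a log2 change of 0.07 in BB19. The gene ugt-8 was called only in BB2 at L4 (log2 0.38 ± 0.05) of the 8 comparisons. The pull-down was made in young adults and the mutants were measured as embryos and L4 larvae, so bound and changed transcripts come from different stages.

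**Figure D5:**
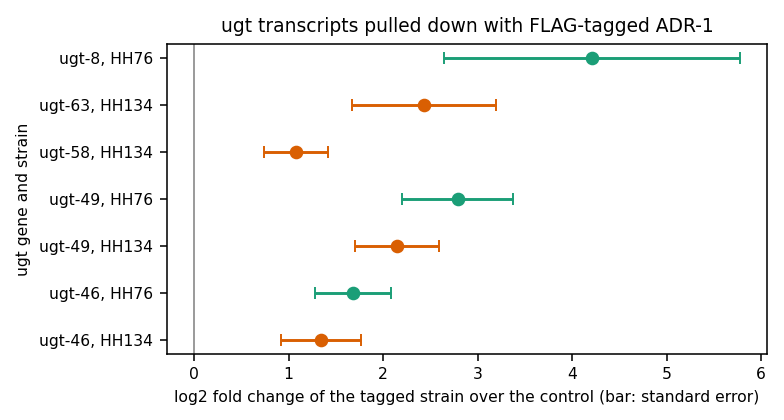
Points give the authors' log2 fold change of pulled-down RNA in the tagged strain over the untagged control, and bars its standard error, for ugt transcripts in HH76 (green) and HH134 (orange); ugt-10 is left out because its standard error exceeds the scale. The points of ugt-49 and ugt-46 lie between 1.34 and 2.79 in both strains.

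Other genes of the same chemistry were counted by lists of names, here and in the next paragraph, beside the shares of all genes tested. Those shares include genes of low means. In embryos 13.2% of all genes were called higher and 16.8% lower in BB19, and 18.7% and 16.7% in BB2. In RB886 embryos these shares were 9.27% and 8.93%, and in BB3 10.4% and 5.83%. At L4 they were 17.3% and 15% in BB19 and 16.2% and 18.4% in BB2. In RB886 at L4 they were 9.42% and 8.06%, and in BB3 8.51% and 8.4%. Of 48 genes of other conjugation enzymes, the glutathione transferases and a sulfotransferase, 20 were higher and 2 lower in BB19 embryos, 21 and 3 in BB2, 6 and 4 in RB886, and 9 and 2 in BB3. At L4 17 were higher and 2 lower in BB19, 24 and 2 in BB2, 5 and 3 in RB886, and 12 and 3 in BB3. The median log2 ratio of this list was 0.26 in BB19 and 0.37 in BB2 embryos, beside 0.02 and 0.10 for the ugt genes. Of 82 oxidation genes, the cytochromes P450 and their reductase emb-8, 16 were higher and 9 lower in BB19, 18 and 6 in BB2, 4 and 6 in RB886 and 7 and 11 in BB3 embryos. At L4 these were 25 and 14, 30 and 13, 13 and 5, and 17 and 4 in the same order of strains. Of 30 short chain dehydrogenases between 2 and 5 were higher and 10 or 11 lower in the 4 mutant embryos, and between 5 and 15 were higher and 2 to 6 lower at L4. Of 23 ABC transporters of the pgp and mrp families, which pump compounds out of cells, between 10 and 14 were higher and 0 to 8 lower in embryos, and between 2 and 12 were higher and 5 to 10 lower at L4.

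Of 9 genes of UDP-sugar supply and use, between 1 and 7 were higher and 0 to 2 lower in the 8 comparisons, the most in BB19 at L4, with median log2 ratios between -0.04 and 0.18. Among them sqv-4, which makes UDP-glucuronate from UDP-glucose, was higher in BB19 embryos (log2 0.33, the authors' adjusted p = 2.86e-15) and in BB2 embryos (log2 0.36, 2.09e-22). It was not called in RB886 and BB3 embryos. At L4 sqv-4 was called higher in all 4 strains, by log2 0.18 in BB19, 0.24 in BB2, 0.09 in RB886 and 0.16 in BB3. The gene D1005.2 of the same list, named after its values were seen, was higher at L4 by log2 1.60 in BB19, 1.55 in BB2, 1.06 in RB886 and 1.23 in BB3. In embryos its log2 changes lay between -0.45 and -0.09. Of 19 regulators of detoxification genes, 5 were higher and 2 lower in BB19, 2 and 11 in BB2, 3 and 5 in RB886 and 3 and 2 in BB3 embryos, and between 2 and 7 were higher and 1 to 4 lower at L4. The median log2 ratio of the regulators lay between -0.09 and 0.07 in the 8 comparisons. Among the regulators nsy-1, a kinase of the p38 stress pathway named after its values were seen, was called lower in all 4 mutant embryos, with a log2 change of -0.10 in BB19, -0.41 in BB2, -1.71 in RB886 and -1.72 in BB3. At L4 its log2 change was -0.14 in BB19, -0.34 in BB2, -0.62 in RB886 and -0.44 in BB3, each called lower. The gene skn-1, which codes for a transcription factor that turns on conjugation genes, had log2 changes of 0.01 in BB19 and -0.07 in BB2 embryos, and of 0.20 and 0.02 at L4.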

How the data were processed

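RNA was sequenced in 42 libraries, prepared from ribosomal-RNA-depleted high molecular weight RNA with a stranded kit per the labels. Bowtie, DESeq and the build ce10 are named in the submitters' processing notes, with no version and no role. The expression signal in the deposited tables is the authors' mean normalised read count per strain and transcript, scaled anew in each table. The fold change is the authors' deposited ratio of the mutant to the N2 mean. The p-value and adjusted p-value are the authors', as deposited. The pull-down tables hold the authors' deposited log2 fold change, with its standard error and test statistic as score columns, for bound genes alone. Depth per library is unknown.

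A gene with several transcripts took the values of the one whose means summed highest, and adjusted p-values are over the authors' whole table. Counting standard errors came from the means and the labels' numbers of libraries. The alternative test was a z test with counting error and an assumed spread of 20% between libraries, adjusted by the Benjamini-Hochberg method over all genes. It was tested on simulated data drawn with the same 20% spread. That check does not tell whether the libraries here spread by that much. Shares in ppm use 1 transcript per gene. Log2 ratios carry a pseudocount of 1 in medians, in the colour map and in the count of members within 0.2.

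The members and gene lists were chosen with earlier results of these data known. Genes were named by rule: the 10 highest N2 means per stage, members called in both alleles at least 1.5-fold with an average mean of at least 10, members called oppositely in the alleles of a gene, the 5 widest stage differences in each direction among members with an average N2 mean of at least 10, and every member in the pull-down tables or the authors' lists. Names not found among the lists were pgm-3, atfs-1, opt-2 and myo-1. The annotation also has ugt-66 and ugt-67, which the tables list under clone names and which are not members. The tables spell RB886 as RB668, and some sample descriptions name the table of the other stage; the stage of the table itself was used. Python 3.11.15, numpy 2.4.6, pandas 2.3.3, scipy 1.17.1 and matplotlib 3.10.9 were used.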

Additional observations from a re-analysis of the deposited data

Results flagged for a closer look

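The change in adr-1 mutants differed between embryos and L4 larvae for 3 of 52 members in both alleles and in 1 direction, where 3.07% of all genes tested did so. The difference itself was tested after seeing the data, with the assumed spread of 20% and adjustment over all genes with a mean of at least 10 at both stages. The 3 members below were picked because they passed 0.05 after adjustment in both alleles. That all 6 differences passed was therefore fixed by the choice. The test is a normal approximation under an assumed spread, since means of strains allow no exact test, and so no p is given. For ugt-57 the L4 minus embryo log2 fold change was 2.32 in BB19 (SE 0.368) and 2.32 in BB2 (SE 0.391). For ugt-44 it was -1.77 in BB19 (SE 0.367) and -1.57 in BB2 (SE 0.390). For ugt-17 it was -1.20 in BB19 (SE 0.348) and -1.57 in BB2 (SE 0.368). Both alleles share N2 at each stage. In all, 5 of 52 members passed this test in BB19 (6.5% of all genes) and 5 of 52 in BB2 (6.89%), and 1 of 51 in RB886 (1.05%) and 2 of 51 in BB3 (1.56%).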

How the results depend on the processing

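Members called in BB19, BB2, RB886 and BB3 embryos numbered 24, 36, 12 and 22, and 15, 13, 5 and 7 with at least 1.5-fold, 7, 6, 3 and 4 with at least 2-fold, and 9, 6, 1 and 2 with the 20% spread. The shares of all genes in these strains were 8.03%, 12.3%, 2.27% and 3.53% with at least 1.5-fold, 3.11%, 5.88%, 0.965% and 1.57% with at least 2-fold, and 2.4%, 4.39%, 0.189% and 0.479% with the spread. At L4 they numbered 44, 38, 26 and 24, and 21, 14, 12 and 6 with at least 1.5-fold, 9, 6, 4 and 2 with at least 2-fold, and 12, 7, 3 and 2 with the 20% spread. The shares of all genes at L4 were 9.61%, 10.2%, 4.4% and 4.36%, then 4.96%, 5.29%, 2.11% and 2.27%, and 4.87%, 5.01%, 1.57% and 1.5%. At an adjusted p under 0.01, RB886 embryos had 6 (13.4% of all genes). Members called in 1 direction in both alleles numbered 20 (adr-1 embryos), 7 (adr-2 embryos), 27 (adr-1 L4) and 10 (adr-2 L4), beside 21.2%, 7.6%, 16.7% and 6.81% of all genes tested in both. With at least 1.5-fold they numbered 9, 2, 8 and 3 (5.35%, 0.958%, 4.41% and 1.63% of all genes), and with the 20% spread 5, 0, 5 and 1 (1.53%, 0.0946%, 2.29% and 0.56%). At an adjusted p under 0.01 the adr-2 counts were 2 in embryos (5.15% of all genes) and 6 at L4 (4.88%). Without the 50 genes of the highest mean, the family's share was 965 ppm in N2 embryos and 2121 ppm at L4. The choice of transcript, a minimum mean of 10, adjustment over 1 transcript per gene, other pseudocounts, centring, the other N2 tables and a minimum pull-down log2 of 1 moved no count by over 1.5 times and no median beyond the counting error typical of a member. Within that error the median log2 ratio in BB2 L4 larvae went from 0.24 to 0.16 with a minimum mean of 10 and to 0.15 with a pseudocount of 10, and in BB19 embryos from 0.02 to 0.07 with centring. Medians near 0 changed sign: with the minimum mean RB886 embryos had -0.01, BB3 embryos -0.02 and RB886 L4 larvae -0.01, and with centring BB3 embryos had -0.02. No paired analysis was possible because the tables hold group means, and for the same reason no library could be left out; those alternatives were not run. Means below 10 limit ugt-40 and ugt-59 at L4 and ugt-55 and ugt-47 in embryos.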
